A study of Mus musculus with 5 samples.

Results

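Cxcr6, Ccr2, Itgal and Cd44 code for surface proteins by which T cells are guided into tissue and held there. They were chosen by name, with earlier results of these data known. They are the 4 rows of the deposited table with these symbols, out of 2926 mouse genes. The cells were sorted as CD3+ from the injured side of the brain of wildtype C57BL/6 mice at day 14 of a photothrombotic stroke, in which light closes cortical vessels that carry a photosensitive dye. Trained mice were given running wheels starting at day 2 (3 samples with 66, 124 and 168 cells). Untrained mice had the stroke without training (2 samples with 144 and 190 cells), and mice without a stroke were not analysed here. All cells of both groups had passed a 37% Percoll gradient, CD45 and CD3 staining and single-cell sorting into 384-well plates for SORT-seq, in which each well holds 1 cell and its own barcode. The labels give neither the age of the mice nor whether a plate held cells of 1 mouse or of several. The spread behind each p-value is thus one between 5 libraries and may be technical. Each SE, p-value and interval of a difference comes from limma, which draws a gene's spread toward that of all genes. It is therefore not the gene's own spread between libraries alone.

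CXCR6 is the receptor for the chemokine CXCL16 and is carried by tissue-resident and effector T cells. CCR2 is the receptor for CCL2 and related chemokines, and it brings monocytes and some effector T cells to inflamed tissue. Itgal codes for the alpha chain of the integrin LFA-1, which pairs with the beta chain coded by Itgb2 and holds T cells on ICAM-1 of the vessel wall. CD44 binds hyaluronan and is kept at a high level on T cells that have met antigen. In the deposited table Cxcr6 and Ccr2 lie on chromosome 9, Itgal on chromosome 7 and Cd44 on chromosome 2.

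Each value is a score per gene and cell, from -2.12 to 3.74 over the table, with 72.7% of scores below 0 and 0 whole numbers. Such values may be scaled and integrated between samples, so differences are differences of scores and not of expression. Scores of different genes are not on 1 scale, and the levels of the 4 genes are not compared with each other. Where a difference is ranked among all genes, the rank is in score units and depends on the spread of each gene. Without counts in the table, the depth of each sample is unknown. A cell was called T-marker-positive when its mean score over 7 T cell markers (Cd3d, Cd3e, Cd3g, Cd247, Lck, Thy1 and Cd2) was above 0, which held for 345 of 692 cells. The 159 CD8-gated cells had a positive mean of Cd8a and Cd8b1 without a positive Cd4 score, and the 146 CD4-gated cells had a positive Cd4 score without a positive mean of the other pair. A further 57 cells lay above both gates and 330 below both. These classes are ranges of a score: 50 CD8-gated, 34 CD4-gated and 125 T-marker-positive cells lay within 0.25 above their cut.

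Untrained sample 2 stood apart from the others. In it 1632 of the 2967 rows of the table had a mean of 0 within 1e-06, against 0 rows in each other sample. Its median SD between cells was 0.728, against 0.370 to 0.515 elsewhere, and 41 of its 190 cells had a mean score above 1 over the 6 measured myeloid markers (Cst3, Ctss, C1qb, Tyrobp, Fcer1g and Apoe), against 0 to 5 cells elsewhere. Of the fixed marker lists, none of the genes of B cells, astrocytes, neurons, endothelial cells or red cells was in the table, so those cells could not be checked. Of the 331 well numbers in the cell names, 221 occurred in more than 1 sample.

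Between CD8-gated and CD4-gated cells, Cxcr6 and Cd44 differed in opposite directions. By its mean score per sample Cxcr6 was higher in the CD8-gated cells and Cd44 lower in them in 5 of 5 samples, and by the median over cells each in 4 of 5, while Ccr2 and Itgal had no common direction. The comparison was made within each sample to describe how the 4 genes divide between the T cell classes. None of the 4 passed limma at an adjusted p under 0.05, where 0.171% of all 2923 genes did. A direction shared by 5 of 5 samples was found for 13.8% of all genes, with 4.45% higher and 9.37% lower in CD8-gated cells.

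Cxcr6 had mean scores in CD8-gated cells of 0.027, 0.487 and 0.247 in trained samples 1 to 3 and of 0.080 and 0.221 in untrained samples 1 and 2. In CD4-gated cells the means were -0.137, 0.036 and -0.118 in the trained and 0.063 and -0.013 in the untrained samples. Every sample was higher on the CD8 side, by as little as 0.017 in untrained sample 1 and by as much as 0.451 in trained sample 2. The mean difference was 0.246 ± 0.068 (SE, 5 samples, limma adjusted p = 0.178), the 18th highest of 2923. Scores above 0 were found in 42.6% ± 15.2 of CD8-gated and 29.7% ± 14.5 of CD4-gated cells (SD, n = 5 samples). In untrained sample 1 this share ran the other way, with 38.9% (95% Wilson interval 24.8 to 55.1) of CD8-gated and 51.4% (35.6 to 67.0) of CD4-gated cells, and so did the median score, at -0.108 and 0.000.

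Cd44 had mean scores in CD8-gated cells of -0.097, -0.066 and -0.068 in trained samples 1 to 3 and of -0.161 and -0.145 in untrained samples 1 and 2. In CD4-gated cells they were 0.221, 0.034 and 0.198 in the trained and 0.058 and 0.281 in the untrained samples. All 5 CD8-gated means were below 0 and all 5 CD4-gated means above it. The share of all genes with the means of the 2 classes apart was not computed. The mean difference was -0.266 ± 0.063 (SE, limma adjusted p = 0.131), with the 15th smallest p of all genes. Scores above 0 were found in 22.9% ± 7.53 of CD8-gated and 43.3% ± 12.1 of CD4-gated cells (SD, n = 5). In untrained sample 2 the median score of CD8-gated cells was -0.358 and that of CD4-gated cells -0.369, so that there the lower mean was not shared by the typical cell.

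The size of both differences depended on how the scores were summarised. With medians over cells the difference was 0.172 for Cxcr6 and -0.148 for Cd44 (limma adjusted p = 0.686 and 0.654). When each gene was regressed on the mean score of the cell over all genes, within each sample, Cxcr6 passed with a difference of 0.281 ± 0.061 (adjusted p = 0.021) and Cd44 with -0.226 ± 0.054 (adjusted p = 0.0301). This alternative was chosen after seeing the data, and 2.22% of all genes passed in it. With scores divided by their SD Cd44 also passed (-0.457 SD units, limma adjusted p = 0.0267), as 1 of 53 genes, and Cxcr6 did not (0.391, adjusted p = 0.0622). Among gated cells that were also T-marker-positive the differences were 0.300 for Cxcr6 and -0.352 for Cd44, with adjusted p of 0.098 and 0.0712.

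**Figure D1:**
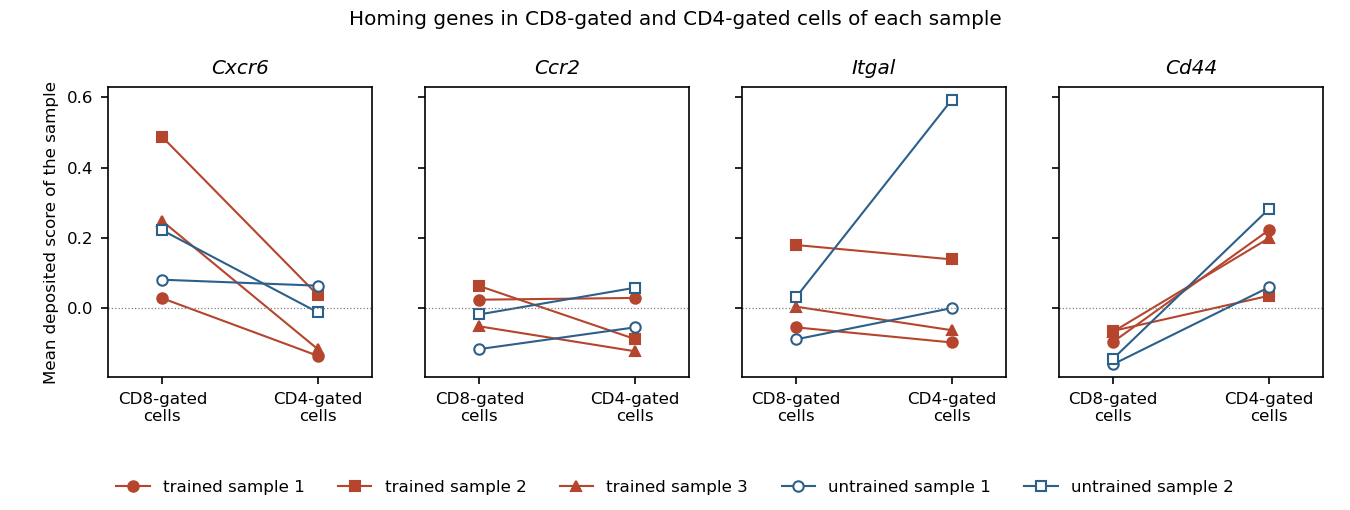
Mean deposited score of each gene (vertical axis, score units) by gate, CD8 on the left and CD4 on the right, with 1 line per sample. Lines for Cxcr6 fall and lines for Cd44 climb toward the CD4-gated cells in 5 of 5 samples, and 1 line for Itgal, of untrained sample 2, stands apart at 0.593.

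The promoter windows of these 2 genes are shown because they were the pair with opposite directions. They are taken from RefSeq (GRCm38.p6), which lists 3 of the 4 genes, Itgal being the exception. Each runs from 250 bases before to 50 bases after the start of the gene, 5′ to 3′ on the strand of the gene. Capitals mark a RUNX site, written TGTGGT and searched on either strand, after the family of factors that act in CD8 T cells.
Cxcr6, chr9:123806227-123806526, plus strand: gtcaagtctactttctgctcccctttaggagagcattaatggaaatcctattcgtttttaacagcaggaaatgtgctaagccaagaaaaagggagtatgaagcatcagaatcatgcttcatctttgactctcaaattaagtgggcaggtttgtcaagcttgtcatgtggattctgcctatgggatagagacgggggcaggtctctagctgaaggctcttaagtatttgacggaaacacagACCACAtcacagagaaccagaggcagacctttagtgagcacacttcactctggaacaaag
Cd44, chr2:102901616-102901915, minus strand: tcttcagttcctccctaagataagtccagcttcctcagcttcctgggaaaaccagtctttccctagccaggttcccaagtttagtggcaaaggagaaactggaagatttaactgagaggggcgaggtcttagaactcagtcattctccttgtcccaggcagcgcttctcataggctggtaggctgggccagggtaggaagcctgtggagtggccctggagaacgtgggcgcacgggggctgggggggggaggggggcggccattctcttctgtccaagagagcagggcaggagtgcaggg
Of 32851 windows of the same length 16.8% held this motif, and Cxcr6 had 1 match, on the opposite strand. A T-box half-site, written TCACAC on either strand and present in 14.5% of windows, was in neither window. A match is a description of letters and not a binding site.

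Ccr2 had mean scores in CD8-gated cells of 0.023, 0.062 and -0.053 in the trained and -0.118 and -0.019 in the untrained samples. In CD4-gated cells the means were 0.028, -0.089 and -0.124 in the trained and -0.056 and 0.057 in the untrained samples. The classes overlapped, and the difference was 0.016 ± 0.060 (SE, limma adjusted p = 0.941) with a 95% interval from -0.113 to 0.144. It was -0.018 without trained sample 2. Scores above 0 were found in 19.3% ± 8.44 of CD8-gated and 23.6% ± 10.1 of CD4-gated cells (SD, n = 5).

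Itgal was set apart by a single library. Its CD8-gated means were -0.056, 0.179 and 0.003 in the trained and -0.090 and 0.031 in the untrained samples. Its CD4-gated means were -0.099, 0.138 and -0.064 in the trained and -0.001 and 0.593 in the untrained samples. The value of 0.593 belongs to untrained sample 2, where 11 of 28 CD4-gated cells had a score above 1. The difference was -0.100 ± 0.083 (SE, limma adjusted p = 0.645) over all samples and 0.016 without untrained sample 2. In that sample the CD4-gated cells also had the highest mean score over all genes (0.110, against 0.007 to 0.070 in the other samples), and 5 of the 28 were high in myeloid markers. The part of either in the value was not tested, and without the cells high in myeloid markers the difference over all samples was -0.175.

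Cells with high T cell marker scores had higher mean scores of all 4 genes than the other cells of their sample, and so it was for most genes of the table. In score units the differences of Cxcr6 and Itgal were larger than those of most genes, and that of Ccr2 was close to the median gene. The SD between cells was above that of the median gene in each sample for Cxcr6 (0.495 to 0.916) and Itgal (0.533 to 0.850). That of the median gene was 0.370 to 0.728 and that of Ccr2 0.270 to 0.600. The part of spread in this order was not tested. The comparison asks how far the 4 genes follow the T cell markers, which were left out of the fit. All 4 genes passed limma, but 88.8% of all 2919 genes did, 83.2% with higher and 5.55% with lower scores. All 4 were higher in 5 of 5 samples, as were 79.1% of genes, and 84.7% of genes had 1 direction in 5 of 5 samples. For all 4 the range of T-marker-positive means also lay above that of the other cells. The share of all genes for which this held was not computed.

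In T-marker-positive cells Cxcr6 had means of 0.141, 0.286 and 0.241 in the trained and 0.117 and 0.489 in the untrained samples. In the other cells the means were -0.259, -0.252 and -0.181 in the trained and -0.204 and -0.345 in the untrained samples. The 2 ranges did not overlap, and the difference was 0.503 ± 0.064 (SE, 5 of 5 samples, limma adjusted p = 5.17e-05), above that of 93.1% of genes. Scores above 0 were found in 47.8% ± 8.81 of T-marker-positive and 12.3% ± 5.53 of the other cells (SD, n = 5).

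Itgal behaved much like Cxcr6 here, with means in T-marker-positive cells between 0.048 (trained sample 1) and 0.469 (untrained sample 2). In the other cells they lay between -0.333 (trained sample 2) and -0.256 (untrained sample 1). The difference was 0.499 ± 0.059 (SE, limma adjusted p = 3.54e-05). Scores above 0 were found in 49.8% ± 7.52 of T-marker-positive and 11.3% ± 3.46 of other cells (SD, n = 5). Itgb2, the partner chain of LFA-1, was named after its values were seen and differed by 0.364 ± 0.038 (adjusted p = 1.55e-05).

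Cd44 had means in T-marker-positive cells between -0.013 (untrained sample 1) and 0.252 (untrained sample 2), and between -0.225 and -0.151 in the other cells. The ranges did not overlap, and the difference was 0.288 ± 0.045 (SE, limma adjusted p = 0.000185). Ccr2 ranged from -0.031 to 0.080 in T-marker-positive and from -0.223 to -0.141 in other cells, a difference of 0.197 ± 0.034 (adjusted p = 0.00037). The median difference over all genes was 0.203, so Ccr2 lay just below it, with 48.1% of genes lower. In untrained sample 2 the median Ccr2 score was -0.219 in T-marker-positive and -0.217 in other cells, and 7 of the 70 T-marker-positive cells were above 0, all 7 of them above 1.

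In untrained sample 2 the means rested on a minority of cells for Cxcr6 and Cd44 too. Of its 70 T-marker-positive cells 23 had a Cxcr6 score above 1, and the median was -0.353, against -0.402 in the other cells. For Cd44 14 were above 1, and the medians were -0.336 and -0.367. In that sample 15 cells for Cxcr6, 7 for Ccr2, 7 for Itgal and 6 for Cd44 stood at a ceiling of 2.517. With medians over cells all 4 genes still passed, and so did 1669 genes in all. The differences were 0.208 for Cxcr6, 0.109 for Ccr2, 0.361 for Itgal and 0.166 for Cd44 (limma adjusted p = 0.000232 to 0.0406).

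The T cell marker score moved with the mean score of the cell over all genes, with a Pearson r of 0.78 averaged over the 5 samples (0.68 to 0.86). T-marker-positive cells averaged 0.085 and the other cells -0.121 on that mean. After regression on it 0 of 2919 genes passed (488 had an unadjusted p under 0.05), and the differences were 0.147 for Cxcr6, 0.062 for Itgal, 0.033 for Ccr2 and 0.024 for Cd44 (adjusted p = 0.298 to 0.686). Cells high in myeloid markers made up 14.1% of the other cells and 0.58% of the T-marker-positive cells. Without them all 4 genes still passed, and so did 2752 genes in all.

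**Figure D2:**
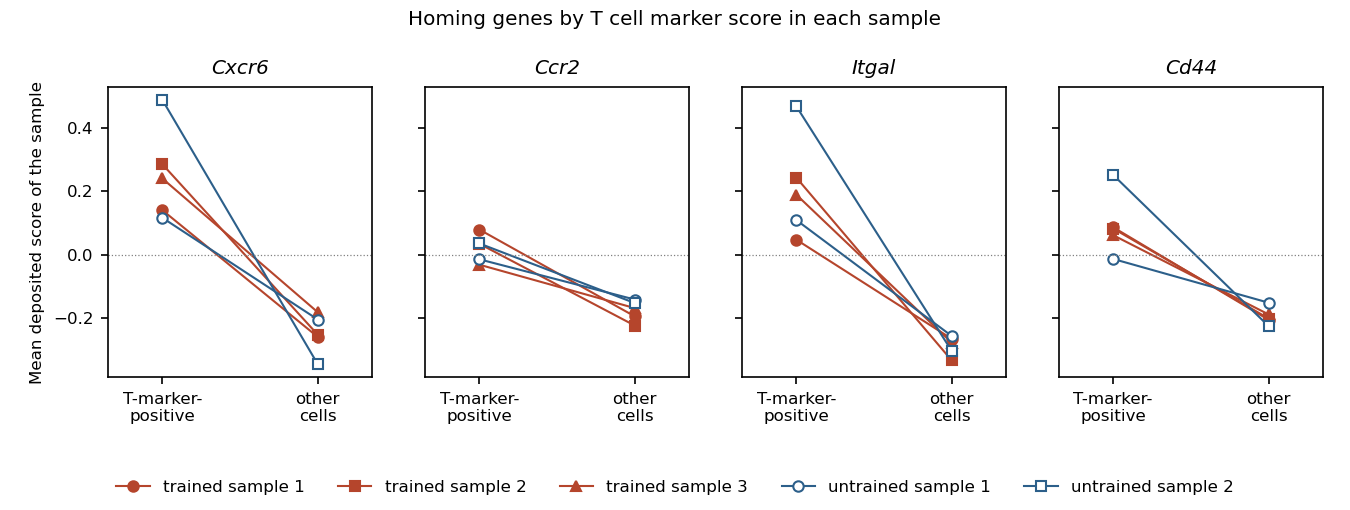
Mean deposited score of each gene (vertical axis, score units) in T-marker-positive and other cells of each sample, with 1 line per sample. For each gene all 5 T-marker-positive means lie above all 5 means of the other cells, and untrained sample 2 has the steepest line of means for Cxcr6 (0.833), Itgal (0.772) and Cd44 (0.476), while its medians for Cxcr6 and Cd44 nearly met.

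**Figure D3:**
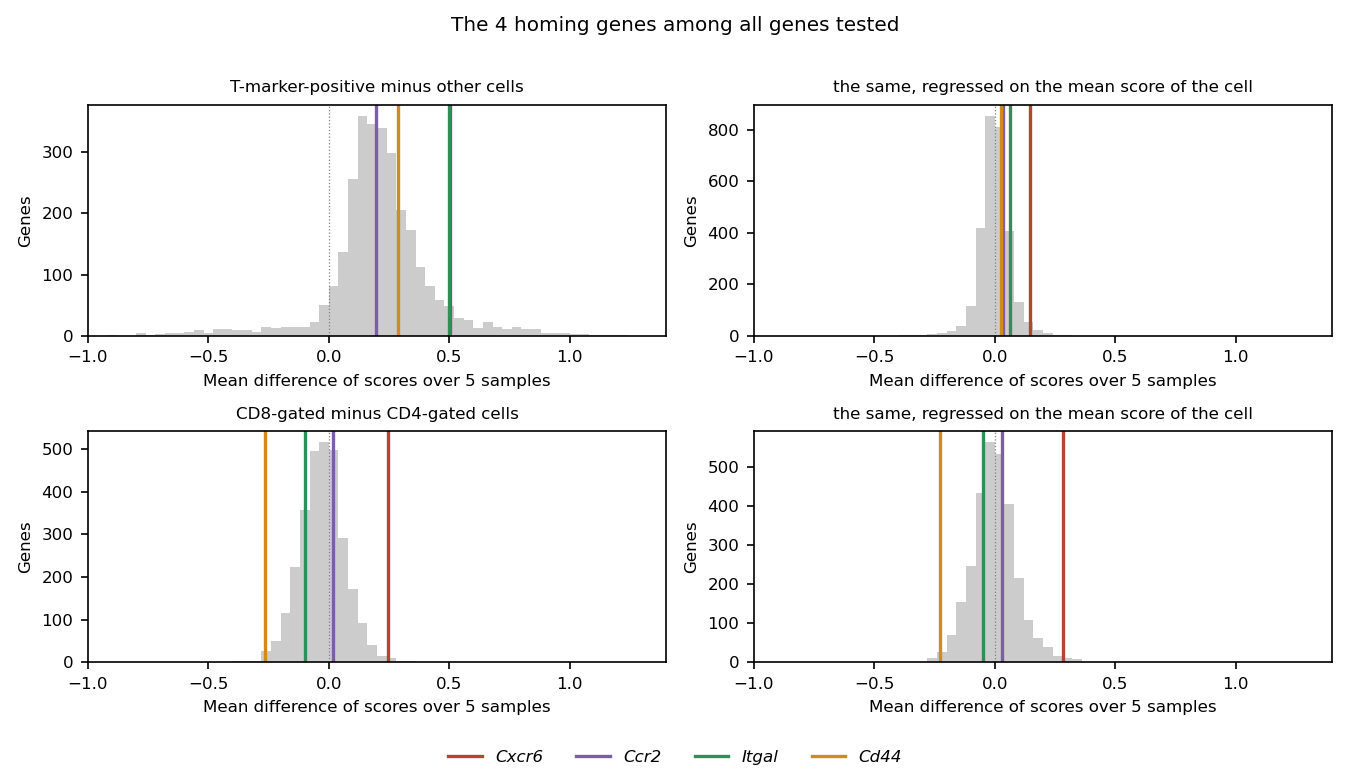
Histograms of the mean difference of scores over 5 samples (horizontal axis) for all genes tested (vertical axis, number of genes), with the 4 genes as vertical lines, before (left) and after (right) regression on the mean score of the cell. In the upper row most genes lie above 0 on the left, with a median of 0.203, and on both sides of 0 on the right, with a median of -0.001, and in the lower row Cxcr6 and Cd44 lie in opposite tails in both panels.

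Over the 4 ranges of the gates, scores of the genes had different orders. For Cxcr6 the share of cells above 0, averaged over the 5 samples, was 42.6% in CD8-gated cells, 36.6% in cells above both gates, 29.7% in CD4-gated and 21.8% in cells below both. For Cd44 the order was CD4-gated (43.3%), above both gates (41.2%), CD8-gated (22.9%) and below both (18.8%). Itgal was most often above 0 in cells above both gates (52.6%), then in CD8-gated (40.1%), CD4-gated (35.6%) and cells below both gates (18.6%). Ccr2 had the order above both (28.1%), CD4-gated (23.6%), CD8-gated (19.3%) and below both (9.33%). Most neighbours in these orders were no farther apart than the larger of their SDs between samples, which was 25.0 points for Cxcr6 in the 57 cells above both gates, of which trained sample 2 held 2. The exceptions were cells above both gates against CD8-gated cells for Cd44, CD4-gated cells against cells below both gates for Itgal, and CD8-gated cells against cells below both gates for Ccr2. Of the cells below both gates 28.2% were T-marker-positive, against 63.7% to 89.5% in the other ranges.

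**Figure D4:**
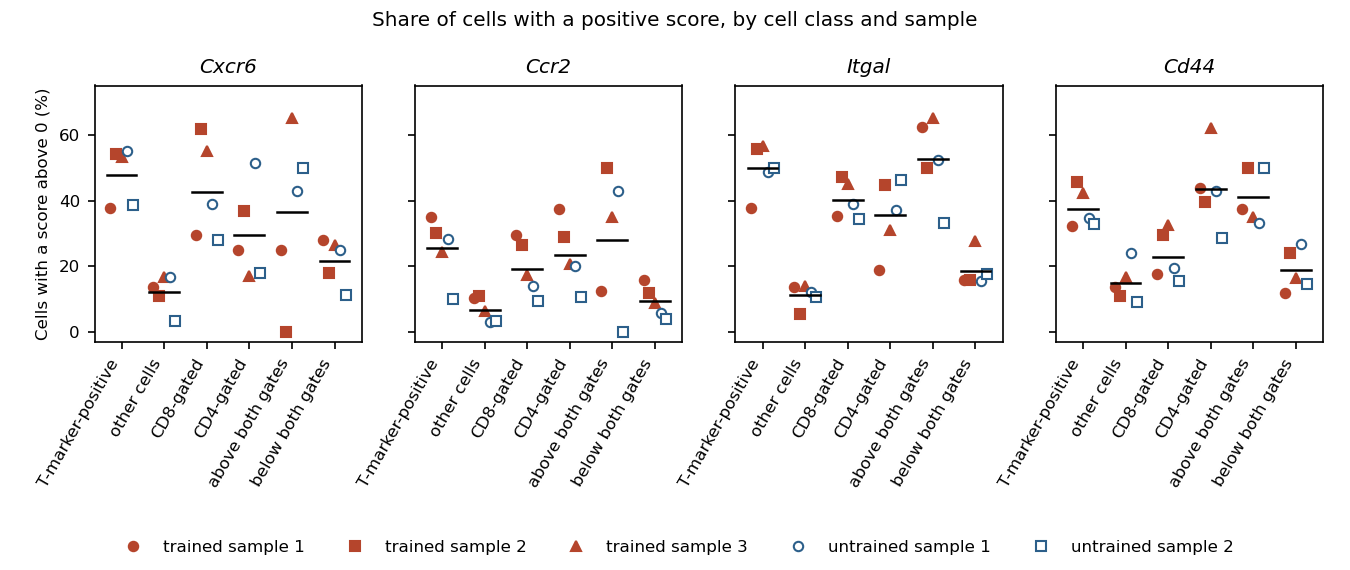
Share of cells with a score above 0 (vertical axis, %) for each gene by cell class (horizontal axis), with 1 symbol per sample and a black line at the mean of the 5 samples. T-marker-positive cells stand above other cells for all 4 genes in each sample, and for Cd44 the mean of CD4-gated cells (43.3%) is above that of CD8-gated cells (22.9%).

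Many cells had a positive score for more than 1 of the genes. Positive is used here for a score above 0, and not for detection of the transcript. Of the T-marker-positive cells 20.6% were above 0 for none, 27.2% for 1, 27.2% for 2, 18.0% for 3 and 6.96% (24 cells) for all 4. Of the other cells 65.4% were above 0 for none and 0 of 347 for all 4, which allows a share of up to 0.865% by counting error alone. Among T-marker-positive cells 108 were positive for both Cxcr6 and Itgal, which is 63.5% of those positive for Cxcr6 and 61.0% of those positive for Itgal. Both Cxcr6 and Cd44 were positive in 73, which is 42.9% of the Cxcr6-positive and 55.3% of the Cd44-positive cells. In CD8-gated cells 38 were positive for Cd44 and 26 of them (68.4%) also for Cxcr6, for which 71 of all 159 were positive. In CD4-gated cells 63 were positive for Cd44 and 26 of them (41.3%) also for Cxcr6, for which 46 of all 146 were positive. Read from the Cxcr6-positive cells the order was reversed, with 36.6% of CD8-gated and 56.5% of CD4-gated ones positive for Cd44. These counts pool the cells of all samples and were not tested.

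Across the cells of each sample, 3 of the 5 genes most like Cxcr6 are known from effector lymphocytes. Likeness was the Pearson r across cells, averaged over the 5 samples, given as a description, since cells of a sample share library, depth and integration. For Cxcr6 the highest were Nkg7 (0.42, a cytotoxic granule gene), Id2 (0.41, a regulator of effector T cells), Actb (0.41), Ctsw (0.40, a lymphocyte cathepsin) and Thy1 (0.39). After regression on the mean score of the cell Nkg7, Id2 and Ctsw stood at 0.25, 0.26 and 0.25, and Actb and Thy1 at 0.18 each. The lowest were D630045M09Rik (-0.31) and Grk4 (-0.30).

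For Itgal the highest were cytoskeletal and translation genes: Actb (0.44), Rpl13a (0.41), Tmsb4x (0.40), Eef2 (0.40) and Actg1 (0.39). After the regression these stood between 0.08 and 0.14. Cd44 was nearest to Actb (0.32), the tetraspanin gene Cd82 (0.32), Actg1 (0.30), the class I gene H2-K1 (0.29) and Tmsb4x (0.29), and Cd82 remained at 0.20 after the regression. Ccr2 had the weakest likenesses, led by S100a10 (0.27), Ms4a4b (0.27), the actin-binding Lsp1 (0.27), Ly6a (0.25) and Xrn2 (0.25). The lowest were Kcnq1ot1 and A630089N07Rik for Itgal (-0.34 each), A130077B15Rik (-0.26) and Kcnq1ot1 (-0.25) for Cd44, and Gm17644 (-0.16) and A630089N07Rik (-0.15) for Ccr2. Among the 4 genes the closest pair was Cxcr6 and Itgal (0.33, from 0.23 to 0.47 over the samples), then Itgal and Cd44 (0.28). The chromosome 9 pair Cxcr6 and Ccr2 had 0.22 (0.12 to 0.33), and Ccr2 and Cd44 had 0.10.

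The training comparison asks whether running altered these genes in cells of the injured brain. None of the 4 genes passed limma in all sorted cells, in T-marker-positive cells or in either gate, where 0% of all 2926 genes passed. Groups that did not overlap were found for 25.1%, 14.8%, 25.1% and 14.5% of all genes in these 4 comparisons, and among the 4 genes for Cd44 in CD8-gated cells. The share of genes with an unadjusted p under 0.05 was 7.72%, 1.71%, 8.92% and 2.43% in the same order. With 3 samples against 2, intervals were wide.

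Over all sorted cells Cxcr6 had means of -0.035, 0.051 and 0.045 in the trained and -0.030 and -0.038 in the untrained samples. Trained samples 2 and 3 were above both untrained samples, and trained sample 1 lay between them. The difference was 0.055 ± 0.028 (SE, limma adjusted p = 0.689, 95% interval -0.008 to 0.117). The differences of Ccr2, Itgal and Cd44 were 0.007, -0.004 and 0.018, each smaller than its SE. The share of cells with a Ccr2 score above 0 was 24.2%, 21.8% and 16.1% in the trained and 16.7% and 5.79% in the untrained samples, which overlap.

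Within 4 of the cell classes that share did not overlap between the groups. The mean scores did overlap in CD8-gated cells, CD4-gated cells and cells below both gates. It was 29.4%, 26.5% and 17.5% in trained and 13.9% and 9.38% in untrained samples for CD8-gated cells, where 17.9% of all genes separated in that direction. For CD4-gated cells it was 37.5%, 28.9% and 20.7% in trained and 20.0% and 10.7% in untrained samples (5.57% of all genes), with trained sample 3 and untrained sample 1 almost level. In cells below both gates it was 16%, 12% and 8.86% in trained and 5.77% and 4.03% in untrained samples (3.93% of all genes). In cells that were not T-marker-positive it was 10.3%, 11.1% and 6.41% in trained and 3.03% and 3.33% in untrained samples (3.04% of all genes). Separation with lower shares in trained samples was found for 1.03%, 3.93%, 7.31% and 12.2% of all genes in these 4 classes, in the same order. The last class shares cells with the others. In T-marker-positive cells it overlapped, at 35.1%, 30.0% and 24.4% in trained and 28.2% and 10% in untrained samples. The share of cells with a score above 1 overlapped in CD8-gated cells (5.88%, 17.6% and 10% in trained, 0% and 6.25% in untrained samples). It also overlapped in CD4-gated cells and in cells below both gates. In cells that were not T-marker-positive it stayed apart, and the share of all genes doing so was not computed. In untrained sample 2, 10 of the 11 cells above 0 for Ccr2 were above 1. These shares were not tested, and in CD4-gated cells the mean score of Ccr2 ran the other way (-0.063). In cells below both gates it was lower too, at a mean of -0.153 over trained and -0.126 over untrained samples. In cells that were not T-marker-positive the means did not overlap, with every trained sample lower. They were -0.194, -0.223 and -0.168 in trained and -0.141 and -0.152 in untrained samples. The share of all genes whose means separated in these cells was not computed.

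In T-marker-positive cells the training differences of Cxcr6, Itgal and Cd44 were -0.080 ± 0.100, -0.130 ± 0.102 and -0.042 ± 0.073, and that of Ccr2 was 0.017 ± 0.049 (SE, limma adjusted p = 0.998 each). For Cxcr6 the untrained samples, at 0.117 and 0.489, lay on either side of all 3 trained samples. Without untrained sample 1 the differences of Cxcr6 and Itgal passed, at -0.266 and -0.309 (adjusted p = 0.0445 and 0.0447), as did 145 genes. Without untrained sample 2 they were 0.105 and 0.050 (adjusted p = 0.997 each). The direction for both genes thus changed with the untrained sample that was left out.

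In CD8-gated cells the training difference of Cxcr6 was 0.103 ± 0.098 (SE, limma adjusted p = 0.763), and it was -0.014 without trained sample 2. Cd44 had means of -0.097, -0.066 and -0.068 in the trained and -0.161 and -0.145 in the untrained samples. These groups did not overlap, with the trained samples higher, which was so for 21.6% of all genes, and the difference was 0.076 ± 0.075 (adjusted p = 0.776). The differences of Ccr2 and Itgal were 0.079 ± 0.077 and 0.072 ± 0.083, while 70.7% of all genes had a positive difference.

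In CD4-gated cells the training difference of Itgal was -0.305 ± 0.142 (SE, limma adjusted p = 0.999, 95% interval -0.613 to 0.004), lower than that of all but 0.308% of genes. It was -0.007 without untrained sample 2 and -0.602 without untrained sample 1 (adjusted p = 0.999 and 0.0595). The differences of Cxcr6, Ccr2 and Cd44 were -0.098, -0.063 and -0.018. The difference between the training effects in the 2 gates was 0.201 ± 0.134 for Cxcr6, 0.142 ± 0.124 for Ccr2, 0.377 ± 0.142 for Itgal and 0.094 ± 0.131 for Cd44. None of these passed (limma adjusted p = 0.758 to 0.895), and of all genes 0 passed and 173 (5.92%) had an unadjusted p under 0.05. The CD8 minus CD4 differences of trained and untrained samples did not overlap for Itgal or for Ccr2 (-0.005, 0.151 and 0.071 in trained and -0.062 and -0.077 in untrained samples), with the trained ones higher, as for 18.3% of all genes (20.8% in either direction). For Itgal the difference was 0.140 without untrained sample 2 and 0.613 without untrained sample 1.

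**Figure D5:**
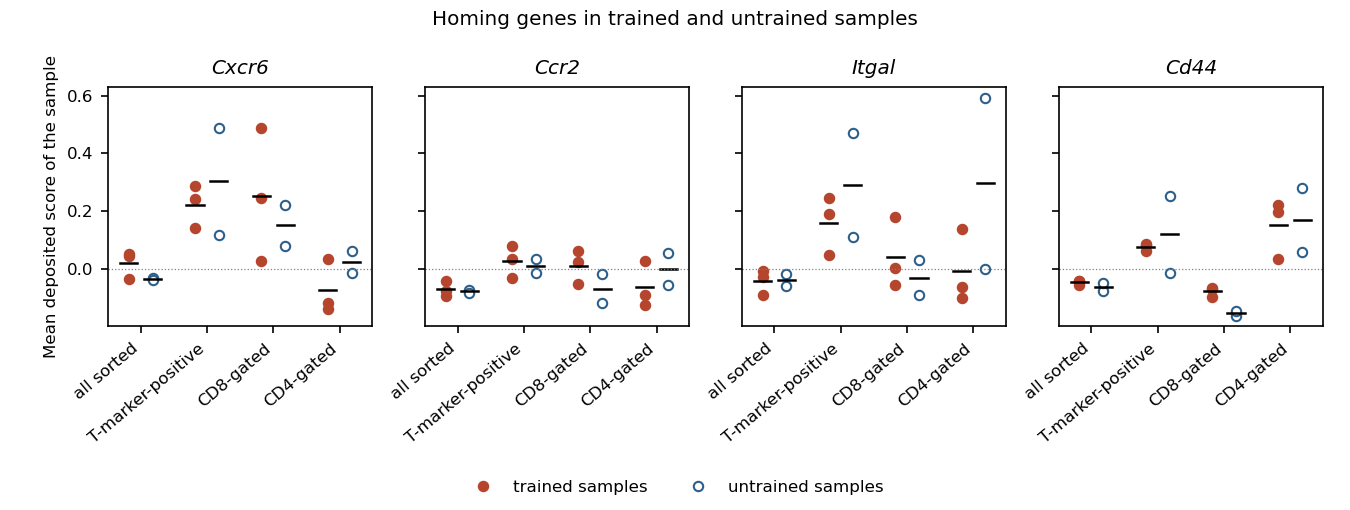
Mean deposited score of each gene per sample (vertical axis, score units) in trained (filled) and untrained (open) samples by cell class (horizontal axis), with black lines at group means. Trained and untrained samples overlap in each panel except for Cd44 in CD8-gated cells, and the highest open circles for Itgal (0.469 and 0.593) are both untrained sample 2.

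Of a list of 96 genes of T cell trafficking, 51 were in the table, the 4 genes among them. In CD8-gated against CD4-gated cells, 1 gene of the list passed, the chemokine gene Ccl5, which was higher by 0.659 ± 0.104 (SE, limma adjusted p = 0.0131). In all, 13 of the 51 had positive and 38 negative differences, with a median of -0.063, against -0.027 over all genes, of which 38.5% had positive differences. By role, 11 of 12 migration signalling genes, 8 of 9 integrin activation genes and 6 of 7 selectin, CD44 and partner genes had negative differences, none of which passed. Of the 6 chemokine receptors 4 had positive ones, with Cxcr6 at 0.246, and none passed. After regression on the mean score of the cell 4 of the 51 passed: Cxcr6, Ccl5 (0.716) and Xcl1 (0.381), a chemokine for dendritic cells, were higher, and Cd44 lower.

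Between T-marker-positive and other cells 46 of the 50 genes of the list that were tested passed with higher and 2 with lower scores, where 83.2% and 5.55% of all genes did. The median was 0.351, against 0.203 over all genes. Among those with the smallest p were Coro1a (0.784 ± 0.061), an actin regulator of lymphocytes, and Ccl5 (0.900 ± 0.078). S1pr1, the receptor for exit from lymphoid tissue, was higher by 0.384 ± 0.034, and Gnai2, a G protein chain used by chemokine receptors, by 0.462 ± 0.040. The neutrophil chemokine receptor gene Cxcr2 was lower by 0.599 on the score scale (difference -0.599 ± 0.042, limma adjusted p = 2.32e-06). The other gene that was lower was the integrin gene Itga4 (-0.168, adjusted p = 0.00433), named after its values were seen.

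By training 0 of the 51 genes passed in each of the 4 cell classes. Over all sorted cells the smallest p were those of Rgs2 (-0.110), Vav1 (-0.088) and Itga4 (0.083), with limma adjusted p of 0.318 to 0.517. In CD8-gated cells 41 of the 51 had positive differences (median 0.060, against 0.046 over all genes, of which 70.7% were positive), led by p by Coro1a (0.294 ± 0.086, adjusted p = 0.52), Xcl1 (0.230) and Apbb1ip (0.190). In CD4-gated cells 36 of the 51 had negative ones (median -0.053, against -0.028 over all genes, of which 37.1% were positive), with the smallest p for Spn (-0.247), Itgal and Vav1 (-0.214).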

How the data were processed

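Scores of 2926 mouse genes and 41 spike-ins in 692 cells were used. The authors deposited the table under the name of a count matrix, but its values are scores, made by steps that no source used here gives. Cell Ranger is named, without a version, per the submitters' processing notes. The genome build is not given in the sources used here. Cells were assigned to samples by the number ending their names, per the labels. A second deposited table repeats 384 of the columns to within 5.0e-10 and was not used.

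Mean scores per gene, sample and class (at least 10 cells) were fitted with limma 3.58.1 in R 4.3.3. SEs, intervals of differences and p-values use its moderated spread, which draws on all genes. P-values were two-sided and adjusted by Benjamini and Hochberg's method across every gene tested, with 0.05 as the threshold. Classes were compared as differences within samples, without the genes that define them. The fits were tested on simulated data. Shares have 95% Wilson intervals, which cover counting error only. Python 3.11.15 with numpy 2.4.6, pandas 2.3.3, scipy 1.17.1 and matplotlib 3.10.9 was used. The 4 genes and the lists were chosen with earlier results of these data known. Named genes were the 4, for each the 5 most and 2 least like it, and of the trafficking list up to 6 past the threshold or otherwise the 3 with the smallest p per comparison. In the comparison by T cell marker score, 1 gene that this rule names is not reported here. Alternatives were leaving out each sample, medians, scores divided by their SD, weights by cells, leaving out cells with a myeloid score above 1, cuts at 0.25, T-marker-positive gated cells only and, added later, the regression on the mean score of the cell.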

Additional observations from a re-analysis of the deposited data

Results flagged for a closer look

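Itgal in untrained sample 2 lay far from the other samples. Its difference between CD8-gated and CD4-gated cells was -0.562 there, against -0.089 to 0.068 elsewhere, a gap of 0.751 of the whole range of the 5 samples, above Dixon's critical value at the 95% level. Chance flags about 1 in 20 such groups, and 8 were screened. In 3 of 3 trained samples the Itgal difference was above 0 and in 2 of 2 untrained samples below 0, so that trained minus untrained was 0.377 ± 0.142 (SE, limma adjusted p = 0.758), which did not pass. The groups separated in that direction for 18.3% of all genes, Ccr2 among them. Without untrained sample 2 it was 0.140, and without untrained sample 1 it was 0.613 (adjusted p = 0.0943).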

How the results depend on the processing

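Leaving out each sample in turn, the number of genes past the threshold by training ran from 0 to 3 in all sorted cells, from 0 to 145 in T-marker-positive cells and from 0 to 8 in CD4-gated cells, and was 0 each time in CD8-gated cells. Between the gates it ran from 0 to 7, for the difference of the gates by training from 0 to 10, and by T cell marker score from 2407 to 2689. The highest training counts came without untrained sample 1, and the 0 between the gates without trained sample 1 (307 at an unadjusted p under 0.05). With medians over cells 9 genes passed by training in cells of the CD8 gate, 2 in those of the CD4 gate, 0 between the gates (215 unadjusted) and 1669 by T cell marker score. With a cut at 0.25, 1 gene passed by training in CD8-gated cells. Between the gates 53 passed with scores divided by their SD, 0 without cells high in myeloid markers (309 unadjusted, by limma), 11 in T-marker-positive gated cells and 65 after regression on the mean score of the cell. By T cell marker score 0 passed limma after that regression (488 unadjusted).

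Of 300 values of the 4 genes under alternatives, 261 kept their direction and side of the threshold, 5 newly passed, 4 no longer passed and 30 changed sign, each in a comparison that the gene had not passed. Changes of sign by training in all sorted cells were Ccr2 at -0.022 with medians, -0.00047 with weights and -0.001 without cells high in myeloid markers, Itgal at 0.059 and 0.003 with medians and weights, and Cd44 at -0.009 without those cells. With medians Cxcr6 and Cd44 were at 0.120 and 0.109 in T-marker-positive cells, Ccr2, Itgal and Cd44 at 0.001, 0.002 and 0.230 in CD4-gated cells, and Cd44 at -0.152 for the gates by training. Cxcr6 was at -0.075 by training in T-marker-positive CD8-gated cells, and Cd44 at 0.023 in CD4-gated cells with scores divided by their SD. Between the gates Ccr2 was at -0.008 without cells high in myeloid markers and at -0.031 in T-marker-positive gated cells. Leaving out each sample, the training values in all sorted cells ran from -0.009 to 0.018 for Ccr2 and from -0.023 to 0.021 for Itgal. In T-marker-positive cells they ran from -0.266 to 0.105 for Cxcr6, -0.009 to 0.046 for Ccr2, -0.309 to 0.050 for Itgal and -0.174 to 0.091 for Cd44. They ran from -0.014 to 0.216 for Cxcr6 in CD8-gated and from -0.130 to 0.093 for Cd44 in CD4-gated cells. Between the gates they ran from -0.018 to 0.039 for Ccr2 and from -0.142 to 0.016 for Itgal, and for the gates by training from -0.009 to 0.197 for Cd44. The cause of these changes was not tested. No paired analysis was possible because replicate numbers were given in the order of the samples and pair nothing across the groups. Depth is unknown, so its limits could not be given.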
